A study of Mus musculus with 8 samples.

Results

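Focal adhesion kinase (FAK) is a tyrosine kinase of integrin adhesions that is also found in the nucleus. Open chromatin of squamous cell carcinoma (SCC) cells from mouse skin was mapped by ATAC-seq, a method that uses the Tn5 transposase to tag accessible DNA. The regions described here had a peak in each FAK-WT library and no peak in the remaining 6 libraries. They were selected by the peak calls themselves. Joining all peaks on chromosomes 1 to 19, X and Y that shared 1 bp or more gave 69399 regions, and 1381 of these met the rule. That was 1.99% of all regions and 3.83% of the 36059 regions called in both FAK-WT libraries. They are called FAK-WT exclusive regions below, which refers to the lists of called peaks and not to a measured absence of accessibility in the other lines. Because the calls chose them, their peak strength in FAK-WT cells is given as a description with no test.

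All cells derived from tumours that DMBA and TPA induced in K14CreER FAKflox/flox mice of the FVB strain, with Ha-Ras as the labelled driver. FAK was deleted in culture with 4-hydroxytamoxifen. FAK-/- cells were a clone of these cells, and FAK-WT, FAK-nls (R177A, R178A, R190A, R191A, R216A and R218A) or FAK-kd (K454R, kinase-deficient) was returned to a FAK-/- clone by retrovirus under hygromycin selection. FAK-nls carries changes in the nuclear localisation sequence. Each of the 4 lines had 2 libraries, so differences between lines cannot be told apart from differences between the transduced populations. The paper calls the 2 libraries of a line biological replicates, without naming separate cultures. The p-values therefore measure only the spread between these libraries.

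An accessible region marks DNA that is free of nucleosomes, most often a promoter at a transcription start site (TSS) or an enhancer that can lie far from the gene it acts on. Enhancers of keratinocytes and of their tumours are commonly bound by AP-1, dimers of the Jun and Fos families, which read the 7-letter word TGACTCA. Proteins of the ETS, RUNX and TEAD families bind in the same elements, SP and KLF proteins bind GC-rich promoters, and CTCF binds insulators and loop anchors.

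The 5 sequences that follow are from the FAK-WT exclusive regions with the strongest peaks that held an AP-1 word in their central 500 bp. They show the kind of DNA that the largest shared sequence feature refers to. Each is 120 bases of the GRCm38.p6 plus strand, 5′ to 3′, placed on that word, and capitals mark the word TGACTCA or its reverse complement TGAGTCA. They lie at chr16:5790236-5790355, chr16:66370172-66370291, chr4:65196152-65196271, chr16:67646765-67646884 and chr16:75717945-75718064, in the order of the lines, and are named by the nearest protein-coding gene.
Rbfox1: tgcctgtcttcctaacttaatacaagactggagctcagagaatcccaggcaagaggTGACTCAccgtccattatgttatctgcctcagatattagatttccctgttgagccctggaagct
Vgll3: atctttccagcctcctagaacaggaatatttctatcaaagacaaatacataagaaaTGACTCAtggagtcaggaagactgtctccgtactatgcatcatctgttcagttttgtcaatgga
Pappa: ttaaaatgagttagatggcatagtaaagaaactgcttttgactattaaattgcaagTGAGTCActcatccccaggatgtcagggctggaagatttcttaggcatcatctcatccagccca
Cadm2: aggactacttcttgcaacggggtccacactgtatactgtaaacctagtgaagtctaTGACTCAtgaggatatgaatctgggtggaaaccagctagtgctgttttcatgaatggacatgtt
Hspa13: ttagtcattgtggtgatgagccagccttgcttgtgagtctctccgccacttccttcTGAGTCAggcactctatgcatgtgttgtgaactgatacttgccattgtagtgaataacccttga

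The libraries differed in how many peaks were called, and this bears on every count of regions called in only 1 line. FAK-WT replicate 1 had the most peaks, 53703, and FAK-WT replicate 2 had 39036. The other libraries ranged from 24383 in FAK-nls replicate 1 to 45937 in FAK-kd replicate 2. Both FAK-nls libraries had the shortest lists, the second with 24959 peaks. The promoters of cell type markers were checked against the label. Of 10 keratinocyte and epithelial markers, 1 (Itga6) had a promoter peak in all 8 libraries, and 5 (Krt5, Krt8, Trp63, Cdh1 and Epcam) had none in any library. Of 7 fibroblast markers, 4 (Col1a1, Col1a2, Pdgfra and Pdgfrb) had a promoter peak in all 8 libraries, as did 2 of 4 melanocyte markers (Mitf and Pmel). None of 4 endothelial markers had one in all 8, and none of 5 leukocyte markers had one in any. A FAK-WT exclusive region lay in the promoter of 2 of the markers, Lamb3 and the endothelial gene Cdh5.

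FAK-WT exclusive regions were weak peaks within the FAK-WT libraries, and narrow beside regions called in more libraries. Width here is that of the merged region, which each further library that calls it can only widen. Strength is given as the percentile of a peak by −log10 p among all peaks of its own library, where 0 is the weakest and 100 the strongest. The median percentile was 26.5 in FAK-WT replicate 1 (quartiles 14.1 and 41.2) and 19.3 in FAK-WT replicate 2 (quartiles 9.42 and 32.1). The median fold enrichment over local background was 3.83 in replicate 1 and 3.54 in replicate 2, and the median width was 441 bp. Regions called in all 8 libraries had median percentiles of 81.1 and 75, fold enrichments of 5.59 and 4.83, and a width of 1001 bp. The exclusive sets of the other lines were as narrow, with median widths of 415 bp in FAK-/-, 405.5 bp in FAK-kd and 430 bp in FAK-nls. Of the 1381 regions, 203 in replicate 1 and 100 in replicate 2 were in the upper part of the library, above the 50th percentile, and 43 (3.11%) were there in both. The −log10 p of the same region in the 2 FAK-WT libraries was related only loosely (Spearman correlation 0.31 over the 1381 regions, against 0.79 over the 17917 regions called in all 8), a description over regions that share their libraries.

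**Figure D1:**
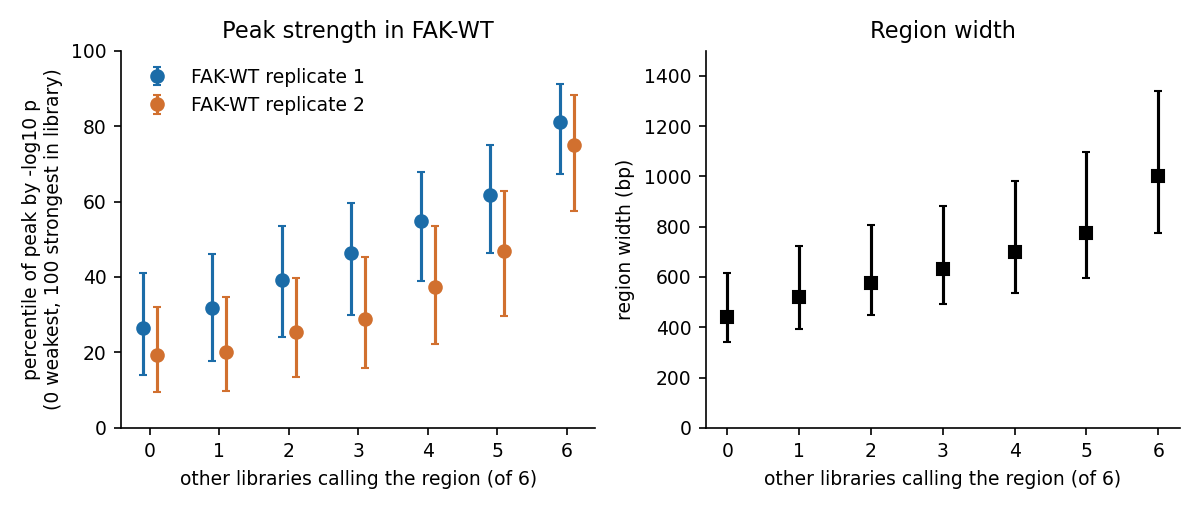
Strength and width of regions called in both FAK-WT libraries, by how many of the other 6 libraries also called them. Left, median percentile of the peak by −log10 p in each FAK-WT library; right, median region width in bp; bars are quartiles. Regions called in no other library sit lowest in both panels, at median percentiles of 26.5 and 19.3 and 441 bp. The width is that of the merged peaks of all libraries that call a region, so each added library can only widen it.

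The rule has a threshold at no call in any other library, and the regions just outside it were close to the members in strength. A further 1947 regions had a peak in both FAK-WT libraries plus exactly 1 other library, with median percentiles of 31.7 and 20 in the FAK-WT libraries. The other library was FAK-kd replicate 2 for 922 of them (47.4%) and FAK-/- replicate 1 for 624 (32.0%), which are the libraries with the most peaks outside FAK-WT. It was a FAK-nls library for 52 and 56 of them. The peak in that other library was itself weak, at a median percentile of 21. The quartiles of these regions in FAK-WT replicate 1, 17.7 and 46.2, overlapped those of the members.

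Few peaks of any library lay right beside a FAK-WT exclusive region. Within 200 bp there was a peak of any other line at 8 regions (0.579%), within 1 kb at 43 (3.11%) and within 5 kb at 421 (30.5%). The rule itself bars a peak of another line that overlaps a member. These shares were counted around members only, so they give no contrast with other regions. The median gap to the nearest peak of any of the 6 libraries was 10.0 kb. By library the median gap ran from 14.1 kb in FAK-kd replicate 2 to 31.6 kb in FAK-nls replicate 1, which is the order of their peak numbers at both ends. Peaks of the FAK-WT libraries outside the members were also few there, and lay within 1 kb of 26 members in replicate 1 (1.88%) and 15 in replicate 2 (1.09%), with median gaps of 10.3 and 15.7 kb. The 100 kb on either side of a FAK-WT exclusive region held a median of 9 other regions called in any library, against 10 around regions called in both FAK-WT and 1 to 5 other libraries and 11 around regions called in all 8. No other region called in all 8 lay within 100 kb of 408 FAK-WT exclusive regions (29.5%), against 12.8% of regions called in both FAK-WT and 1 to 5 other libraries and 9.61% of those called in all 8. In the exclusive sets of the other lines this share was 41.0% of 39 regions for FAK-nls, 15.9% of 220 for FAK-kd and 11.6% of 328 for FAK-/-.

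Most FAK-WT exclusive regions were away from promoters. By the GENCODE vM21 annotation, 633 (45.8%, 95% Wilson interval 43.2 to 48.5) were intergenic, 575 (41.6%, 39.1 to 44.3) were intronic and 137 (9.92%, 8.45 to 11.6) were in a promoter, from 500 bp before to 2000 bp after a TSS of any transcript. Only 9 were in coding exons, 10 in untranslated exons and 17 in exons of non-coding transcripts. The promoter share was 19.3% in regions called in both FAK-WT and 1 to 5 other libraries and 49.4% in regions called in all 8. These intervals cover counting error only. With protein-coding transcripts alone, 64 FAK-WT exclusive regions (4.63%) were in a promoter.

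The median distance from the centre of a FAK-WT exclusive region to the nearest protein-coding TSS was 34.5 kb (quartiles 11.6 and 97.6). It was 21.7 kb where 1 to 5 other libraries called the region and 5.26 kb where all 8 did. Of the members, 57 (4.13%) were within 1 kb of a protein-coding TSS, 519 (37.6%) were 10 to 50 kb away and 338 (24.5%) were over 100 kb away. They fell on both sides of their genes, 689 of 1381 lying downstream of the nearest TSS. The remaining exclusive sets were smaller: 328 regions were called only in both FAK-/- libraries, 220 only in both FAK-kd libraries and 39 only in both FAK-nls libraries. Their promoter shares were 14.9% (11.5 to 19.2), 22.3% (17.3 to 28.2) and 5.13% (1.42 to 16.9), and their median distances were 24.4, 21.6 and 47.5 kb. No test of these shares against the FAK-WT exclusive share was run, because regions of a set share their libraries.

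**Figure D2:**
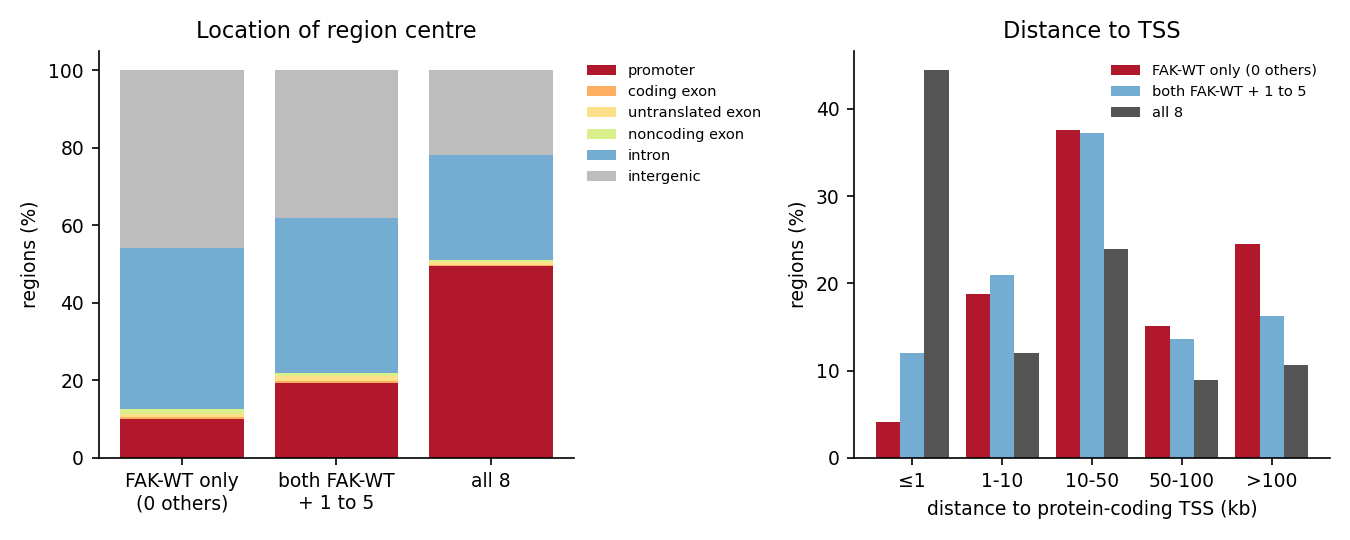
Location of FAK-WT exclusive regions beside regions called in both FAK-WT and 1 to 5 other libraries and in all 8. Left, share of regions (%) by the annotation at the region centre; right, share of regions (%) by distance in kb to the nearest protein-coding TSS. The promoter share is 9.92% in FAK-WT exclusive regions and 49.4% in regions called in all 8.

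The 10 strongest FAK-WT exclusive regions, ordered by the lower of their percentiles in the FAK-WT libraries, were mostly distal. The first was at chr16:5789886-5790532, an intergenic region of 647 bp located 95.1 kb before the TSS of Rbfox1, a regulator of splicing. Its fold enrichment was 7.03 in FAK-WT replicate 1 and 5.74 in replicate 2, at percentiles of 84.2 and 80.3. It was high in both libraries, and the nearest peak of another line was 12.4 kb away in FAK-/- replicate 1. The second, at chr15:40824343-40824711, was in an intron of Zfpm2, a cofactor of GATA proteins, 159.5 kb after its start, with fold enrichments of 7.11 and 5.63. The third, at chr6:128349569-128350091, was inside Tulp3, a gene of ciliary trafficking, and 324 bp after the start of the non-coding gene Gm44190, so that it counted as a promoter of the latter only. The fourth, at chr16:66369937-66370490, was intergenic and 554.6 kb from Vgll3, a cofactor of TEAD proteins, with no peak of another line within 370.0 kb. Its percentile was 71.4 in replicate 1 and 80.9 in replicate 2.

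The others of these 10 were of the same kind. The region at chr4:65196014-65196678 was in an intron of Pappa, which encodes a metalloprotease that cleaves IGF-binding proteins, with fold enrichments of 5.74 and 5.43. The region at chr16:67646511-67647365 lay 26.0 kb before Cadm2, a cell adhesion molecule of the immunoglobulin family (fold enrichments 6.22 and 5.42). Further regions were 48.9 kb from the TSS of Hspa13, an Hsp70 family member (chr16:75717574-75718160), and in introns of the exchanger genes Slc24a3 (chr2:145219229-145219693) and Slc8a1 (chr17:81554159-81554854). The tenth, at chr3:157131113-157131746, was in an intron of Negr1, an adhesion molecule, although the nearest protein-coding TSS was that of Zranb2, 402.7 kb away. An AP-1 word was in the central 500 bp of 8 of the 10, the exceptions being the Zfpm2 and Tulp3 regions.

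The strongest members in promoters of protein-coding genes were weaker than these. The first was at chr8:3718581-3718892, between 2 starts of Clec4g, a C-type lectin gene, with fold enrichments of 5.75 in replicate 1 and 5.02 in replicate 2. Its centre was 1915 bp after 1 start of Clec4g and 83 bp before the nearest annotated one. The second was at chr1:173420330-173420624, with its centre 121 bp before the TSS of Aim2, a sensor of cytosolic DNA, and fold enrichments of 4.83 and 4.50. Their sequences are printed to show the promoter type of member, as 240 bases each of the GRCm38.p6 plus strand outside annotated untranslated exons, at chr8:3718617-3718856 and chr1:173420331-173420570. Capitals mark words of the ETS family (AGGAAGT or CGGAAGT) and of SP and KLF proteins (GGGCGG) on either strand. The Clec4g stretch holds 1 SP and KLF word, on the minus strand, and the Aim2 stretch holds 1 word of each kind.
Clec4g: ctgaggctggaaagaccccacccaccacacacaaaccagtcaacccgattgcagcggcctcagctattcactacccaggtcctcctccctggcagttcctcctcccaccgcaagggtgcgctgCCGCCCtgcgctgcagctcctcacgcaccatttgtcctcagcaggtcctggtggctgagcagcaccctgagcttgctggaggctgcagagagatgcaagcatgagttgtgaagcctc
Aim2: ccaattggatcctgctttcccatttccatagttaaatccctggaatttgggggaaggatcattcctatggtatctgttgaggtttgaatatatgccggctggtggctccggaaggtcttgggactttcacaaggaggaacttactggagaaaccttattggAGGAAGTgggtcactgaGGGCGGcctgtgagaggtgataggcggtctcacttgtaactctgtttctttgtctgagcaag

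The next promoter members were at Adamts4, which encodes an aggrecan-cleaving protease (centre 53 bp before the TSS, fold enrichments 3.68 and 3.16), and Dppa2, a gene of pluripotent cells (152 bp before, 6.45 and 4.27). Members followed at the predicted gene Gm20431, at the phospholipase gene Plcb4 (723 bp after its TSS), at the splicing regulator Mbnl2 and at the sulfotransferase gene Gal3st4 (72 bp after its TSS). Their lower percentiles ran from 46.6 at Adamts4 to 34.1 at Gal3st4. For Gm20431 and Gal3st4 a peak of another line lay within 1 kb, at 0.915 kb and 0.885 kb.

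The 1381 regions were nearest to 1161 protein-coding genes, which is 8.60% of the 13495 genes nearest to any region called in both FAK-WT libraries. Most genes, 1021, had a single FAK-WT exclusive region, 108 had 2 and 32 had 3 or more. The 10 genes with most members, with ties settled by the strongest member, ranged in length from 10.7 kb (Bmp2) to 1612 kb (Nrxn3). Adgrl2, an adhesion G protein-coupled receptor, was nearest to 9 members of 23 regions called in both FAK-WT libraries, all 9 outside the gene and up to 939.5 kb from its TSS. Pappa was nearest to 8 of 13, with 7 inside the gene. Rbfox1 had 7 of 12, Cadm2 7 of 9, the neurexin gene Nrxn3 7 of 17 with all 7 in introns, and Negr1 7 of 23. Bmp2, a ligand of the BMP pathway, had 6 of 11. Sorbs2, an adaptor of actin and adhesion structures, had 6 of 10 and Slc4a4, a sodium bicarbonate cotransporter, had 6 of 8, all of them inside the genes. Flrt2, an adhesion and guidance molecule, had 5 of 26. It shared its place with Lrrc4c (5 of 21) and Fat1 (5 of 11) and was taken for its stronger member. Against the 3.83% of all regions called in both FAK-WT libraries, these shares run from 19.2% at Flrt2 to 77.8% at Cadm2, but the genes were chosen for their number of members, so no test was made. The ranking of genes belongs to the full lists. At equal peak number, as given below, Gabra2, Rbfox1 and Sox9 came first with 4 regions each.

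**Figure D3:**
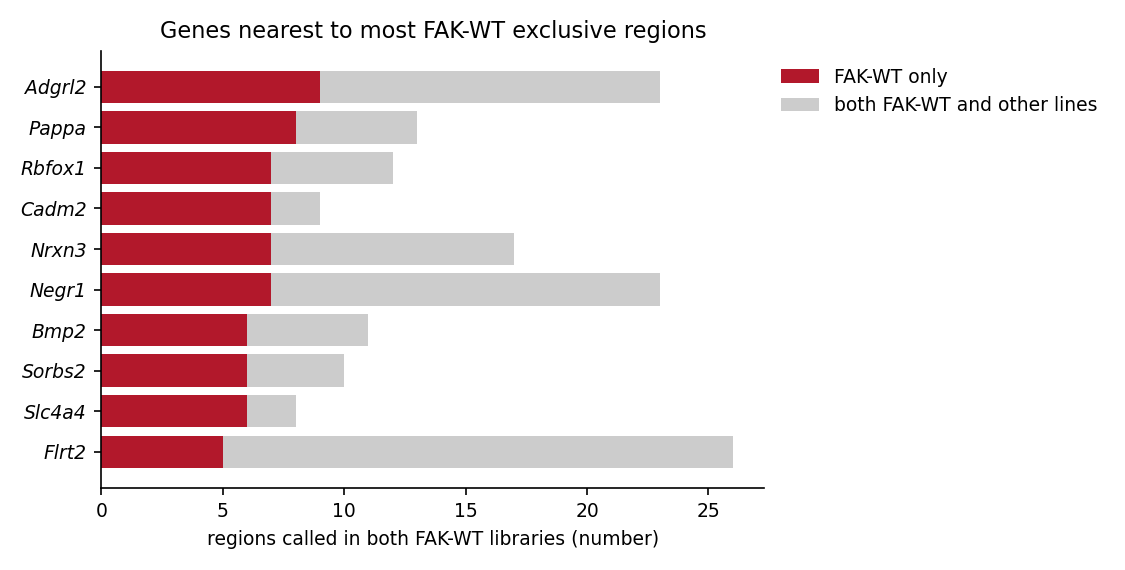
Regions called in both FAK-WT libraries (number) at the 10 protein-coding genes nearest to most FAK-WT exclusive regions. Red, regions called in no other library; grey, regions also called in at least 1 library of another line. Cadm2 has 7 of 9 in red and Flrt2, first of 3 genes tied at 5 members, 5 of 26.

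The promoters of these genes were often not called in any library. No promoter peak was found in any library for Pappa, Rbfox1, Nrxn3, Negr1 or Slc4a4, while Adgrl2 and Flrt2 had one in all 8. Sorbs2 had one in 1 library, Cadm2 in 2 and Bmp2 in 5. Over all 1161 nearest genes, 758 (65.3%) had a promoter peak in at least 1 library and 459 (39.5%) had one in all 8, against 76.2% and 56.8% of the 13495 genes nearest to a region called in both FAK-WT libraries.

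In the full lists, members seldom stood next to each other. Another FAK-WT exclusive region lay within 50 kb of 177 of the 1381 (12.8%) and within 10 kb of 60 (4.34%), and the median distance to the nearest one was 370.9 kb. The share within 50 kb depended on the lists used, and in the following sets it was higher where the set was larger. It was 5.09% of 334 regions at equal peak number and 19.2% of 2301 without FAK-kd replicate 2. Without FAK-WT replicate 1 it was 23.2% of 3213, and without FAK-WT replicate 2 it was 44.3% of 8537. Of the 1947 regions called in both FAK-WT and exactly 1 other library, 14.9% had another of their own set within 50 kb. Chaining members at 50 kb or less gave 1204 single regions, 64 pairs, 9 groups of 3 and 4 larger groups, the largest with 6 members. Those with 6 were inside Pappa, Sorbs2 and Slc4a4.

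The Pappa group spanned 46.4 kb at chr4:65159464-65205836, and all 6 regions called in that interval in any library were FAK-WT exclusive. Their fold enrichments ran from 3.17 to 5.74 in FAK-WT replicate 1 and from 3.48 to 5.43 in replicate 2, and 3 of the 6 held an AP-1 word. The Sorbs2 group spanned 78.0 kb at chr8:45524495-45602498 and held 6 of the 8 regions there, with fold enrichments of 3.09 to 5.89 and 2.86 to 4.25. Its weakest member was at percentile 0.450 in replicate 2, at the very end of that library's list. The Slc4a4 group spanned 48.2 kb at chr5:88928637-88976788 and held 6 of 7 regions, and none of its members was exclusive at equal peak number. No region called in all 8 libraries lay within any of these intervals, and in the Pappa and Slc4a4 intervals no other line had a peak at all.

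The fourth group had 4 intergenic members over 46.4 kb at chr2:147707042-147753473, at least 292.7 kb from Foxa2, the gene of a transcription factor that opens chromatin. Of the 4 regions, 3 held an AP-1 word. Of the 9 groups of 3, the one that held the strongest member by the lower percentile had its members in intergenic DNA over 33.8 kb at chr5:71229035-71262878, at least 133.4 kb from Gabra2, a GABA receptor subunit gene. Its members had fold enrichments of 5.65 to 7.76 in replicate 1 and 4.25 to 5.83 in replicate 2, and none held an AP-1 word.

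Genes of 19 lists for pathways of FAK and of skin tumours were then read, counting for each list its share of members among regions called in both FAK-WT libraries, beside the 3.83% over all such regions. The lists held 405 annotated genes, and 70 of them were nearest to a member. Each list is a selection and not a whole pathway or family, so that its counts cover the listed genes only. Members also lay at unlisted genes of the same families, such as Dkk2 (4), Nkd2 (2), Wnt2 and Frzb (1 each) of the Wnt pathway, Bmp3 (2) and Bmp5 (1), the cytokine genes Il15, Il16 and Il20 (1 each), the keratin genes Krt10 and Krt12 (1 each), the matrix genes Col22a1 (2), Tnxb and Matn4 (1 each) and the protease genes Adamts4, Adamts16 and Mmp17 (1 each). These unlisted genes were chosen after their values were seen. Among ligands and growth factor genes, the listed TGF-beta and BMP genes had 9 of 164, of which 6 were at Bmp2 and 1 each at Tgfb2, Bmpr1b and Fst. The strongest of the Bmp2 members lay 305.8 kb from the TSS with fold enrichments of 4.18 and 4.69. The IGF axis had 13 of 79 (16.5%), of which 8 were at Pappa and 3 at Igfbp7. The strongest of the Igfbp7 members lay 1697 kb from the TSS. The member at Igf1, a ligand of that axis, lay outside that gene, 3.65 kb before its nearest TSS and in an intron of Igf1os. The listed EGF receptor and ligand genes had 2 of 85 (Egf and Areg), listed cytokines and chemokines 3 of 58 (Lif, Ccl2 and Cxcl1), listed Notch genes 2 of 91 (Jag1 and Rbpj) and listed Wnt genes 1 of 113 (Tcf7l2). These counts are small.

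Among structural genes of epithelium, the listed keratin and desmosome genes had 5 of 27 (18.5%), each at another gene (Krt5, Krt18, Krt7, Pkp1 and Jup). The member at Krt5, which marks basal keratinocytes, lay 3.13 kb before its TSS with fold enrichments of 4.25 in FAK-WT replicate 1 and 3.44 in replicate 2, and it was the only region at Krt5 called in both FAK-WT libraries. The member at Jup, the gene of plakoglobin, was in an intron 2.31 kb after the TSS (3.20 and 3.02). Integrins and laminins had 6 of 95. They included 2 at Itga1, the strongest of which was 18.5 kb before the TSS (4.78 and 5.74), 1 at Itgb8 10.9 kb before its TSS (4.86 and 5.17), 1 at Lama5 and 1 in the promoter of Lamb3, 642 bp after the TSS (4.41 and 3.82). Epithelial-mesenchymal transition genes had 6 of 94, at Cdh1, Zeb2, Twist2, Prrx1 and Foxc2. The member at Cdh1, the gene of E-cadherin, was in an intron 11.5 kb after the TSS with percentiles of 30.1 and 9.56.

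Among adhesion signalling genes, FAK partners and other kinases and adaptors had 4 of 172, at Src, Lyn, Bcar3 and Tln2. The member at Src was 29.8 kb after its TSS (fold enrichments 4.70 and 4.40). Semaphorins, ephrins and their receptors had 10 of 220, listed matrix proteins 3 of 141 (Thbs1, Col5a1 and Tnc), and listed proteases and their inhibitors and receptors 1 of 75, 122 bp before the TSS of Mmp10. Among transcription factor genes, AP-1 and ATF genes had 2 of 77 (Jun and Bach1), ETS genes 7 of 88 (Ets2, Elf5, Etv1, Etv4 and Erg) and keratinocyte factors 8 of 156 (Klf4, Klf5, Grhl2, Sox2, Sox9, Gata3 and Runx1). The strongest of these was the Ets2 member, which lay 118.9 kb after the TSS of Ets2 with percentiles of 67.9 and 59.4. YAP and TEAD genes had 3 of 65 (Vgll3 and Amotl2) and cell-cycle inhibitors 1 of 58 (Cdkn1c). All 19 lists had at least 1 member, and no test was made on any list.

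AP-1 was the most frequent of the words searched in FAK-WT exclusive regions. TGACTCA, on either strand, was in the central 500 bp of 621 of the 1381 (45%, 95% Wilson interval 42.4 to 47.6), against 35.3% of all 69399 regions, 43.3% of regions called in both FAK-WT and 1 to 5 other libraries and 33.3% of regions called in all 8. Outside promoters the order was another: 46.7% of FAK-WT exclusive regions, 48.1% of the intermediate regions, 56.1% of regions called in all 8 and 41.5% of all regions. In regions called in all 8 the value with promoters included was therefore the lower one. AP-1 words were densest at the centre, with 38.3% of the words in FAK-WT exclusive regions within 50 bp of it, and 113 regions (8.18%) held 2 or more. Over all regions these shares were 35.4% and 5.90%. They were 35.1% and 7.20% in the intermediate regions, and 30.7% and 8.05% in regions called in all 8, so neither set the members far apart.

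ETS words (AGGAAGT or CGGAAGT) were in 17.3% of FAK-WT exclusive regions and 17.1% of all regions, RUNX words (TGTGGTT) in 15.5% and 13.9%, and TEAD words (ACATTCC) in 11.7% and 9.0%. The p53 family word was in 5.00% and 4.34%, and the CTCF word in 6.52% and 5.04%. SP and KLF words (GGGCGG) were in 11.1%, against 21.2% of all regions and 42.7% of regions called in all 8. CRE words (TGACGTCA) were in 7 FAK-WT exclusive regions (0.507%, against 1.07%) and GRHL words (AACCGGTT) in 3 (0.217%, against 0.174%). None of these words was found in 340 of the 1381 regions (24.6%), and a word is a description of the DNA, not a bound site. The median GC content of the central 500 bp was 46.0%, against 48.0% over all regions and 52.8% in regions called in all 8. Repeats marked in the reference made up 13.8% of the bases of FAK-WT exclusive regions on average, 13.9% of those called in both FAK-WT and 1 to 5 other libraries and 11.3% of those called in all 8.

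**Figure D4:**
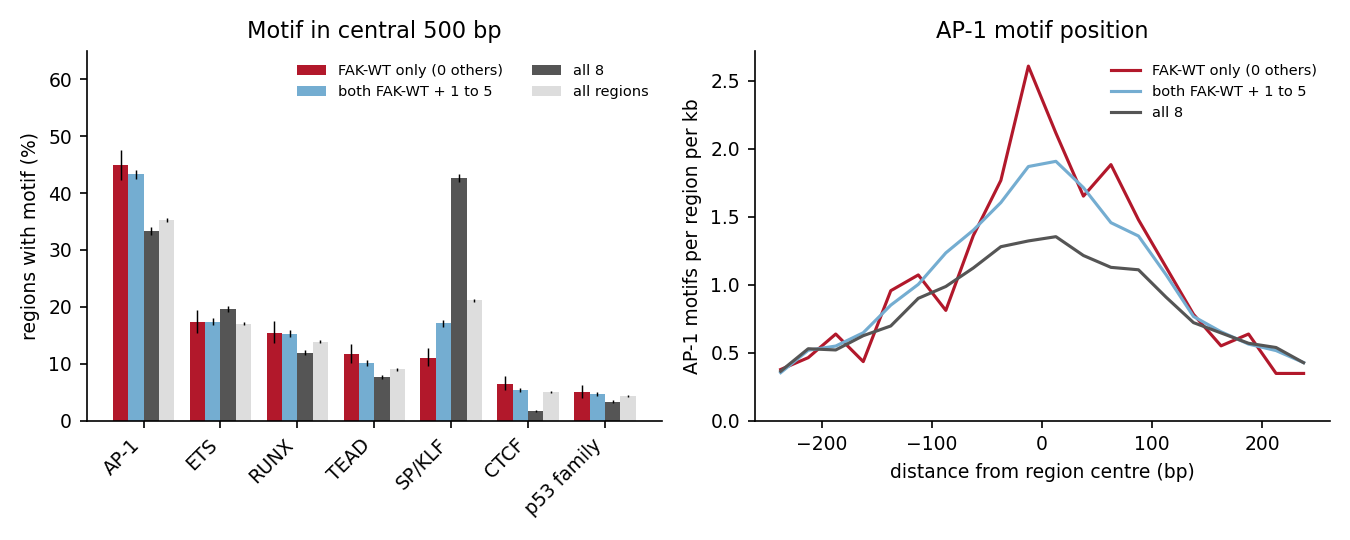
Words of transcription factor families in FAK-WT exclusive regions beside the other sets. Left, share of regions (%) with the word in the central 500 bp, bars are 95% Wilson intervals; right, AP-1 words per region per kb by distance in bp from the region centre, in bins of 25 bp. AP-1 is in 45% of FAK-WT exclusive regions, and SP/KLF in 11.1% against 42.7% of regions called in all 8.

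FAK-WT exclusive regions were found on all autosomes and the X chromosome. The share of members among regions called in both FAK-WT libraries was highest on chromosome 2 (159 of 2852, 5.58%, 95% Wilson interval 4.79 to 6.48) and chromosome 16 (65 of 1259, 5.16%, 4.07 to 6.53), and, among the autosomes and X, lowest on chromosome 6 (56 of 1935, 2.89%, 2.24 to 3.74). This order belongs to the full lists: at equal peak number, as given below, chromosome 16 was highest (19 of 676, 2.81%), chromosome 2 had 30 of 1530 and chromosome 14 was lowest (6 of 686, 0.875%). The local background of each library, derived from pileup and fold enrichment at regions called in all 8, was taken relative to the whole library. On chromosome 2 it was 0.971 and 0.956 in the FAK-WT libraries and between 0.955 and 1.01 in the others, and on chromosome 16 it was 0.926 and 0.912 against 0.881 to 0.983. On chromosome 3, with 112 of 2373 (4.72%), it was 1.18 and 1.13 in FAK-WT and 1.02 to 1.19 in the others. On the X chromosome, which had the second highest share at equal peak number (11 of 443, 2.48%), it was 0.766 in FAK-WT replicate 1, above every other library, 0.650 in FAK-WT replicate 2 and 0.606 to 0.721 in the others. The part of the background in these shares was not tested.

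Because FAK-WT replicate 1 had the longest list, the selection was repeated with the 24383 strongest peaks by −log10 p of each library. Of 40309 merged regions, 334 (0.829%) were then FAK-WT exclusive. Only 73 regions met the rule both ways, which is 21.9% of the 334 and 5.29% of the 1381. Of the 1381 members, 1041 had a peak among the 24383 strongest in neither FAK-WT library. Of the 261 regions that were exclusive only at equal number, 201 (77.0%) had a weaker peak in FAK-kd replicate 2 and 68 (26.1%) in FAK-kd replicate 1. Such a peak was in FAK-/- replicate 1 for 183 (70.1%) and in FAK-/- replicate 2 for 106 (40.6%). It was in FAK-nls replicate 2 for 2 (0.766%) and in FAK-nls replicate 1 for 0. The whole list of FAK-nls replicate 1 is 24383 peaks, so its 0 was fixed in advance. FAK-nls replicate 2, with 24959 peaks, had few weaker peaks left to find.

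The regions found at equal peak number were also distal. A promoter held 40 of the 334 (12%, 95% Wilson interval 8.92 to 15.9), the median distance to a protein-coding TSS was 42.3 kb (quartiles 11.5 and 120), 53.6% had an AP-1 word and 5.09% had another within 50 kb. At equal peak number, 6515 regions were called in both FAK-WT and 1 to 5 other libraries, and 13172 in all 8. In these sets 23.7% and 50.9% were in promoters, at median distances of 20.4 and 4.12 kb. Another lay within 50 kb for 43.6% and 67.0% of these larger sets. The AP-1 share has no such comparison here. Gabra2, Rbfox1 and Sox9 were each nearest to 4 of the 334, and Adgrl2, Flrt2, Kcna4, Pappa and Sorbs2 to 3. Of these, Gabra2 had the same number in both selections, whereas Sox9, a factor of hair follicle and progenitor cells, went from 2 members to 4.

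Whether the surroundings of FAK-WT exclusive regions also differed between the lines was asked of peaks that the rule did not use. These peaks lay around places that the rule chose for their FAK-WT calls, so the tests were not independent of the selection. A FAK-WT excess there is therefore no separate evidence for the regions chosen. First, among the 24383 strongest peaks of each library, those that overlapped no FAK-WT exclusive region but lay within 50 kb of one were counted. They made up 8.4% and 8.39% in the FAK-WT libraries, 7.72% and 7.67% in FAK-/-, 7.9% and 8.0% in FAK-nls, and 7.89% and 8.0% in FAK-kd. Both FAK-WT libraries were above all 6 others, by 0.53 percentage points on average. The two-sided exact permutation test over the 28 choices of 2 libraries gave p = 0.0357, the smallest it can give. After Benjamini-Hochberg adjustment over 3 tests it was 0.0536, which missed the threshold. With so few choices a test could pass only if all 3 reached the smallest p, so the miss decides nothing. Within 10 kb the difference was 0.07 percentage points (exact permutation p = 0.179). Within 200 kb it was 1.03, with the members found at equal peak number 0.21, and with all deposited peaks 0.26 (exact permutation p = 0.0357 for each).

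Second, the 17917 regions called in all 8 libraries were ranked within each library by −log10 p, and the mean percentile was taken for the 1417 that lay within 50 kb of a FAK-WT exclusive region. It was 50.9 and 51.7 in FAK-WT, 50.7 and 50.3 in FAK-nls, 49.1 and 48.9 in FAK-/-, and 48.6 and 48.8 in FAK-kd. FAK-WT was again above all 6 others, by 1.87 percentile points on average, with an exact permutation p = 0.0357 and 0.0536 after adjustment. FAK-nls stood between FAK-WT and the other lines. The local background of the same regions, relative to all regions called in all 8, was 1.1 and 1.11 in FAK-WT, 1.11 and 1.1 in FAK-nls, 1.08 and 1.07 in FAK-/-, and 1.07 and 1.06 in FAK-kd. It was thus higher in the same 4 libraries, and its part in the difference was not tested. Ranked by fold enrichment, which divides by that background, the difference was 0.47 (exact permutation p = 0.464), and ranked by pileup it was 2.1 (p = 0.0714). It was 0.92 within 10 kb (exact permutation p = 0.321) and 1.44 within 200 kb (p = 0.107).

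Finally, the promoters of genes nearest to a FAK-WT exclusive region were compared. Of 7914 promoter regions of protein-coding genes called in all 8 libraries, 479 were at such genes. Their mean percentile by −log10 p was 53 and 52.3 in FAK-WT, 52.4 and 52.1 in FAK-/-, 51.7 and 52.2 in FAK-nls, and 50.7 and 52.3 in FAK-kd. The lines overlapped, the difference of 0.72 percentile points was about the spread of 0.62 (SD) among the other 6 libraries, and the exact permutation test gave p = 0.321 before and after adjustment. Ranked by fold enrichment the difference was -1.19 (exact permutation p = 0.357), and ranked by pileup it was 1.84 (p = 0.179). With nearest genes within 50 kb only, it was 1.57 (exact permutation p = 0.143).

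**Figure D5:**
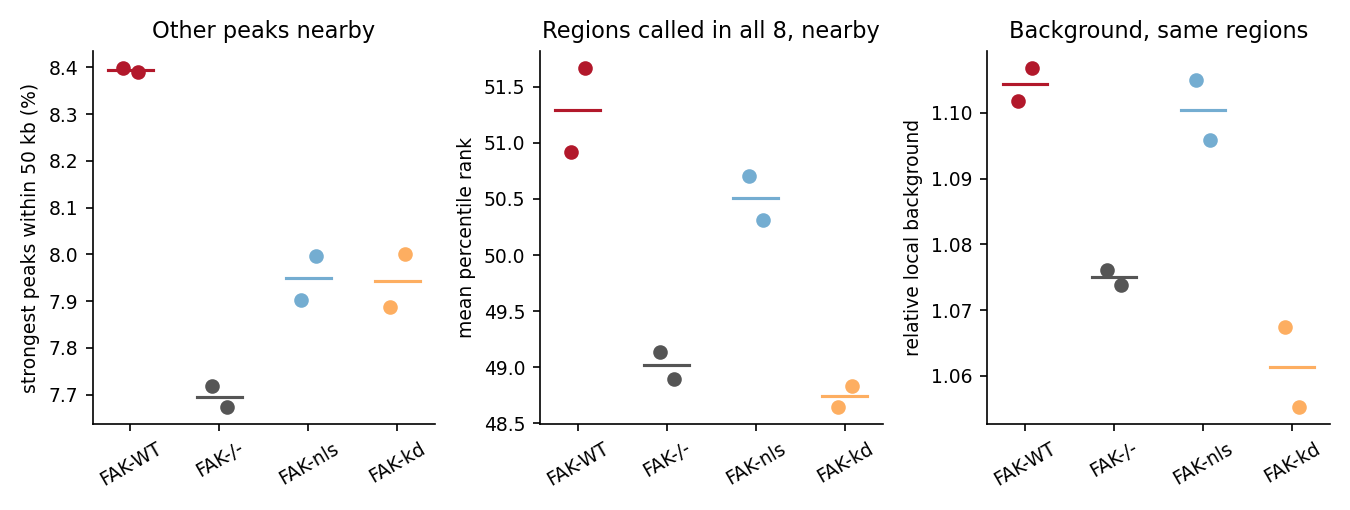
Surroundings of FAK-WT exclusive regions in each library, points are libraries and lines the mean of 2. Left, share (%) of the 24383 strongest peaks that lie within 50 kb of a FAK-WT exclusive region without overlapping one; centre, mean percentile by −log10 p of the 1417 regions called in all 8 within 50 kb; right, local background of those regions relative to all regions called in all 8. The axes do not start at 0, and the spans are small: 7.67% to 8.4% on the left.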

How the data were processed

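ATAC-seq peak lists of 8 libraries, 2 per line, were used. The authors aligned the reads to mm10 with the bcbio pipeline and called broad peaks separately per library with MACS2 (version 2.1.1 per the submitters' processing notes), at a stated q of 0.05, which 12 of the 1381 members in FAK-WT replicate 1 and 61 in replicate 2 did not reach by the deposited −log10 q. The handling of duplicate reads is not given in the sources used here. The deposited columns hold pileup (a coverage signal), the −log10 p and −log10 q values of the caller and the fold enrichment (a ratio to local background), and no read counts, so no count model was used. The study states the sequencing depth of each library, which differed between libraries and was not used here. No library shared an identical peak with another (0 peaks of the same position and pileup).

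Between 15 and 25 peaks per library outside chromosomes 1 to 19, X and Y were left out. Peaks were merged at an overlap of 1 bp, and any peak in a region made it called in that library. Regions were annotated at their centre with GENCODE vM21 (141730 starts) on GRCm38, the build of mm10, and sequence was read from GRCm38.p6. Words were exact matches on both strands, and the p53 family and CTCF words were searched by degenerate letters. Analysis used Python 3.11, NumPy 2.4.6, pandas 2.3.3 and pyfaidx 0.9.0.4. Merging and selection were tested on simulated lists and recovered 200 of 200 made regions.

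The members and gene lists were chosen with earlier results of these data known. The genes named were the 10 strongest members by the lower percentile, the 10 genes nearest to most members, the 8 strongest members in protein-coding promoters, the 5 largest groups (ties by the lower percentile of the strongest member) and up to 4 genes per list, with further list genes named for completeness. The counts of 1 of the 19 gene lists are not reported here. Two-sided exact permutation tests compared FAK-WT with the other 6 libraries, and p-values were adjusted over the 3 tests by Benjamini-Hochberg (threshold 0.05). Replicate numbers were not treated as pairs.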

Additional observations from a re-analysis of the deposited data

How the results depend on the processing

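The number of FAK-WT exclusive regions was 334 at equal peak number, and ran from 1432 to 8537 when a library was left out, with 3213 without FAK-WT replicate 1, 8537 without FAK-WT replicate 2 and 2301 without FAK-kd replicate 2. At equal peak number 12% were in promoters, 53.6% had an AP-1 word and 5.09% had another within 50 kb. With −log10 q of at least 3 the promoter share was 12.9% and the share within 50 kb of another 8.27%, and with regions called only where peaks covered 50% of them these were 12% and 17.5%. Promoters of protein-coding transcripts alone held 4.63%. The AP-1 share was 30.6% in the central 200 bp and 48.7% over the whole region, and ran from 34.0% to 45.4% when a library was left out. The share with another member nearby was 4.34% at 10 kb and 22.2% at 100 kb, and ran from 13.1% to 44.3% without a library, the FAK-WT ones giving 23.2% (without replicate 1) and 44.3% (without replicate 2). The share with a peak of another line was 0.579% within 200 bp and 30.5% within 5 kb, and ran from 2.69% to 5.85% without a library, the highest without FAK-WT replicate 1. The cause of these shifts was not tested beyond the change in calls that each setting makes.

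The 3 permutation tests passed the adjusted threshold under none of the alternatives run (adjusted p from 0.0536 to 0.571), and the direction reversed once, for promoters of the nearest genes ranked by fold enrichment (-1.19; the cause was not tested). Leaving out a FAK-WT library (7 choices), leaving out both FAK-nls libraries (smallest p 0.0667) and the replicate block (smallest p 0.0625) cannot reach the threshold, so these say nothing about it. In the other alternatives a test could pass after adjustment only if all 3 reached their smallest p. Missing the adjusted threshold there therefore says nothing about stability either. With the replicate number as a block, over 16 choices, the differences were the same (0.53, 1.87 and 0.72) and the exact permutation p-values were 0.0625, 0.0625 and 0.375. The numbers gave no sign of pairing: the correlation of the replicate difference between lines ran from -0.18 to 0.05. The alternative without both FAK-nls libraries, which have the fewest peaks, was chosen after seeing the data and gave 1513 regions. Without read counts, a region that is not called in a line is below that library's calling threshold, and no lower limit of accessibility can be given.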

Other observations

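Within the FAK-WT exclusive regions, AP-1 words were least frequent in those with the weakest peaks. With the members ranked by the lower of the FAK-WT percentiles and cut into 4 groups of 345 or 346, from weakest to strongest, an AP-1 word was in 37.9%, 44.9%, 48.4% and 48.7% of regions, and the promoter share was 13.9%, 9.57%, 8.41% and 7.83%. The median width was 520.5 bp in the weakest group and 404 bp in the strongest. The CTCF word was found mostly in members without an AP-1 word, in 77 of 760 (10.1%) against 13 of 621 (2.09%) with one. The same was seen in regions called in both FAK-WT and 1 to 5 other libraries (7.96% and 1.89%), whereas in regions called in all 8 the shares were 1.72% and 1.46%. These are descriptions over regions of the same libraries, given with no test.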
